A study of Homo sapiens with 8 samples.

Results

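The immediate early transcription factors FOS, FOSB, FOSL1, FOSL2, JUN, JUNB, JUND, EGR1, ATF3 and MYC were followed in Caco-2 cells given M2-exo. These 10 genes were taken by symbol from the 58735 genes of the deposited gene tables. The set was chosen by its function with the measured fold changes of these same libraries known, among them higher EGR1, FOS and MYC after M2-exo, so its values in that comparison are a description and no test of it. The cells formed 2 groups. One was Caco-2, a colorectal carcinoma line used as a model of intestinal epithelium, treated with M2-exo (3 libraries), which are exosomes, small secreted vesicles, of the monocytic leukaemia line THP-1; M2 usually names alternatively activated macrophages. The other was Caco-2 given buffer (PBS), named untreated by the labels (3 libraries). Both were labelled wild type. The labels give neither the polarisation of the THP-1 cells nor the exosome dose, the exposure time or the cultures behind the libraries. Every spread below may therefore be technical. The labels call the cells stem cells.

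Typical immediate early genes are switched on within minutes of a growth factor, stress or cytokine signal, without new protein synthesis. This is because the factors that drive them, such as SRF with its ELK partners and CREB, are already in the nucleus. The mRNAs of such genes are short-lived. Whether each gene of the set answers signals in this way in these cells was not tested, and a high level is no sign of it. FOS and JUN family proteins pair through leucine zippers to form AP-1, ATF3 is a related stress-induced zipper factor, EGR1 is a zinc finger protein, and MYC acts as a dimer with MAX. In intestinal epithelium MYC is also a Wnt target of the crypt, and AP-1 and EGR1 take part in proliferation and wound repair.

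Library totals ranged from 15608937 to 18324599 counts. The epithelial markers EPCAM, CDH1, KRT8, KRT18, KRT19, VIL1 and CDH17 stood at 74.5 to 947 FPKM and CDX2 and HNF4A at 8.44 to 50.8 FPKM, whereas KRT20 and LGALS4 stayed at or below 0.151 FPKM. Of 12 macrophage and monocyte markers, CD68 and TYROBP were at 0 counts in all 6 libraries and PTPRC never exceeded 1 count. The summed level of that list was 6.16 to 7.67 FPKM in M2-exo treated cells and 6.78 to 9.22 FPKM in untreated cells, led by CD14. The fibroblast list summed to 7.96 to 10.3 FPKM in treated cells and 7.79 to 9.06 FPKM in untreated cells, led by PDGFRA and COL1A1, with DCN, THY1 and COL1A2 at 2 counts or fewer. One library stood apart: mitochondrial genes took 4.16% of counts in untreated 1, against 7.49% to 8.11% in the treated libraries and 7.01% and 7.48% in the other untreated ones.

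The control regions through which these genes answer signals differ among them. RefSeq windows of 250 bases upstream of an annotated start (GRCh38.p14) were found for 8 of the 10 genes, all but FOSL1 and MYC, with 2 windows for ATF3. The windows of EGR1 and FOS are shown because the results turn on these genes, and those of JUNB and JUND as JUN family genes of middle and high level. Capitals mark every match, on either strand, to AP-1 sites (TGANTCA), CRE (TGACGTCA) and its core (TGACG), the CArG box bound by SRF, EGR sites (GCGNGGGCG), E-boxes (CACGTG), ETS cores (CCGGAA), STAT sites (TTCCNGGAA) and TATA boxes (TATAAA).
EGR1, chr5:138465229-138465478, plus strand: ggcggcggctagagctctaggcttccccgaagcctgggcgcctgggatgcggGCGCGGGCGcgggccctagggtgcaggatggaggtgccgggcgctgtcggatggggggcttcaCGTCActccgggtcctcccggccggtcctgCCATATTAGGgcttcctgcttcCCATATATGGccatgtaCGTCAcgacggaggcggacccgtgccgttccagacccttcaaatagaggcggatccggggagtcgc
FOS, chr14:75278578-75278827, plus strand: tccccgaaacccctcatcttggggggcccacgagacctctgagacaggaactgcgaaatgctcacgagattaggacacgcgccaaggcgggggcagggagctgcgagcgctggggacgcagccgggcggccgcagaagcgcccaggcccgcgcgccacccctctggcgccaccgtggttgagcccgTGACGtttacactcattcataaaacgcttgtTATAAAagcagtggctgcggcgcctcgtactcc
JUNB, chr19:12791236-12791485, plus strand: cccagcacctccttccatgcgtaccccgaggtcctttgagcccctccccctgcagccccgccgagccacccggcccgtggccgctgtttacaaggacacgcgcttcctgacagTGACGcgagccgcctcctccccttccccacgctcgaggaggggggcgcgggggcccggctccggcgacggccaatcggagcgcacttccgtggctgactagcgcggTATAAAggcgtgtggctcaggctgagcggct
JUND, chr19:18281623-18281872, minus strand: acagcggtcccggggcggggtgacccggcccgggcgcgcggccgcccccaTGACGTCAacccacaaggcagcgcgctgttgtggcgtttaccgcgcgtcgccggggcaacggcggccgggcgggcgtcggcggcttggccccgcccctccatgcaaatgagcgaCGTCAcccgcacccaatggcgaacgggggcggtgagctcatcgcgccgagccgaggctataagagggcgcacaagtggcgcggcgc

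Among the 8 genes with a window, EGR1 held CArG boxes, at positions -105 to -96 and -83 to -74 from the start, and an EGR site at -198 to -190. CArG boxes occur in 1.16% of all 35116 windows of this length and EGR sites in 8.41%. JUND held the full CRE at -200 to -193, a match found in 1.65% of windows, and its core matches there overlap it. FOS held the core at -64 to -60 and a TATA box at -33 to -28, and FOSB and JUNB had TATA boxes at like positions. The core was added to the search after the windows had been read. It was present in 7 of the 8 genes, the exception being ATF3, and in 21.2% of all windows. The 2 ATF3 windows, the second of them inside the gene, need not cover every start of ATF3. Other stretches of that gene were not searched, so the absence holds for these windows only. That share is not matched for base content. G and C made up 62% to 74.8% of the windows with the core and 49.2% and 44.8% of those of ATF3, against a median of 58% over all windows. AP-1 sites of the form TGANTCA, E-boxes and STAT sites had no match in any of these windows. TGACATCA, a near match to the full CRE, stands in the JUN window and in the first ATF3 window. It was not among the patterns searched, so its share over all windows was not counted. The well-known serum response element of FOS lies farther upstream than the bases shown. A match of letters is a description of the window and not evidence of binding.

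Levels were compared between genes in FPKM, which is scaled per gene length. The immediate early set in these cells was dominated by JUND, MYC and FOSL2, while FOS itself was low. JUND, the JUN family member often linked to resting cells, stood at 21.6, 30.2 and 54.7 FPKM in treated 1 to 3 and at 23.7, 25.3 and 43.4 FPKM in untreated 1 to 3. MYC stood at 21.4, 27.9 and 25.0 FPKM in treated cells and at 15.9, 17.7 and 23.3 FPKM in untreated cells. FOSL2, also called FRA2, stood at 17.2, 15.5 and 17.8 FPKM in treated cells and at 12.1, 16.2 and 21.6 FPKM in untreated cells. In both groups each of these means lay above that of at least 80.6% of the tested genes, and the treated and untreated ranges of each gene overlapped. In bulk RNA, fewer cells with an mRNA and less of it per cell cannot be told apart.

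A middle tier held EGR1, JUN and JUNB. JUN averaged 5.61 ± 1.04 FPKM in treated cells and 5.05 ± 1.78 FPKM in untreated cells (SD, n = 3 each). JUNB averaged 4.89 ± 1.16 FPKM in treated cells and 4.18 ± 1.89 FPKM in untreated cells. EGR1 averaged 9.63 ± 2.85 FPKM in treated cells and 4.67 ± 2.57 FPKM in untreated cells. In treated cells its range overlapped neither FOSL2, the next higher, nor JUN, the next lower. The lowest treated EGR1 value, 6.78 FPKM, and the highest of JUN, 6.61 FPKM, differed by less than either SD. In untreated cells its range overlapped those of JUN and JUNB. There EGR1 and JUNB, with lowest values of 1.975 and 2.06 FPKM, also overlapped FOSL1 of the low tier, which reached 2.65 FPKM. The tiers thus rest on means and were not separate in untreated cells.

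The low tier held FOSL1, FOS and ATF3, and FOSB was barely present. FOSL1, also called FRA1, averaged 2.74 ± 1.38 FPKM in treated cells and 1.82 ± 0.720 FPKM in untreated cells. FOS averaged 2.16 ± 0.348 FPKM in treated cells and 1.46 ± 0.291 FPKM in untreated cells. ATF3 averaged 1.80 ± 0.262 FPKM in treated cells and 1.67 ± 0.405 FPKM in untreated cells. Neighbours among these 3 genes overlapped in both groups. FOSB had 11, 2 and 13 counts in treated cells and 8, 17 and 11 in untreated cells, or at most 0.171 FPKM, the lowest level of the set in each group. FOSB overlaps ERCC1, and JUNB overlaps HOOK2 (up to 986 counts), both on the opposite strand. No source states whether the counting used strand; without it, reads of JUNB and FOSB cannot be told from those of these partners.

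**Figure D1:**
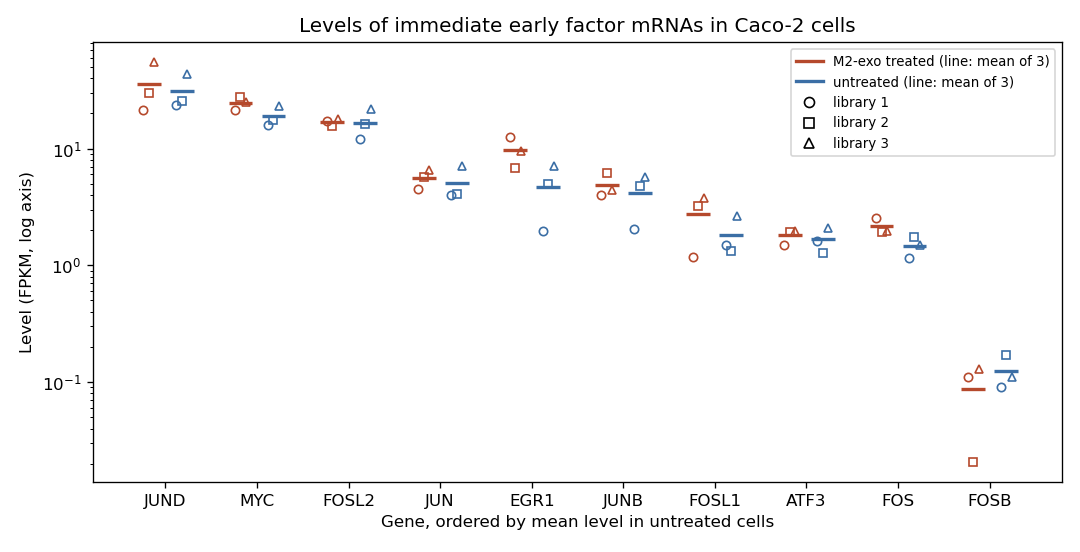
FPKM on a log axis for each gene (x axis, ordered by untreated mean) in each M2-exo treated (red, left) and untreated (blue, right) library; lines are means of 3 libraries. JUND, MYC and FOSL2 lie above 12 FPKM in all 6 libraries and FOSB at or below 0.171 FPKM.

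In every library FOSL2 held most of the FOS family level and JUND most of the JUN family level. FOSL2 made up 81.7%, 74.8% and 75.0% of the summed FPKM of the FOS family in treated 1 to 3, and 81.5%, 83.4% and 83.6% in untreated 1 to 3. The ranges of the groups overlapped through treated 1. JUND made up 71.6%, 71.7% and 83.2% of the summed FPKM of the JUN family in treated cells and 79.6%, 74.2% and 77.2% in untreated cells. FOS, the prototype of the family, held 12.2%, 9.39% and 8.35% of the FOS family in treated cells and 7.82%, 8.94% and 5.77% in untreated cells. FOSL1 held 5.61%, 15.7% and 16.1% in treated cells and 10.1%, 6.83% and 10.2% in untreated cells, so treated 1 had the smallest share and the other treated libraries the largest.

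**Figure D2:**
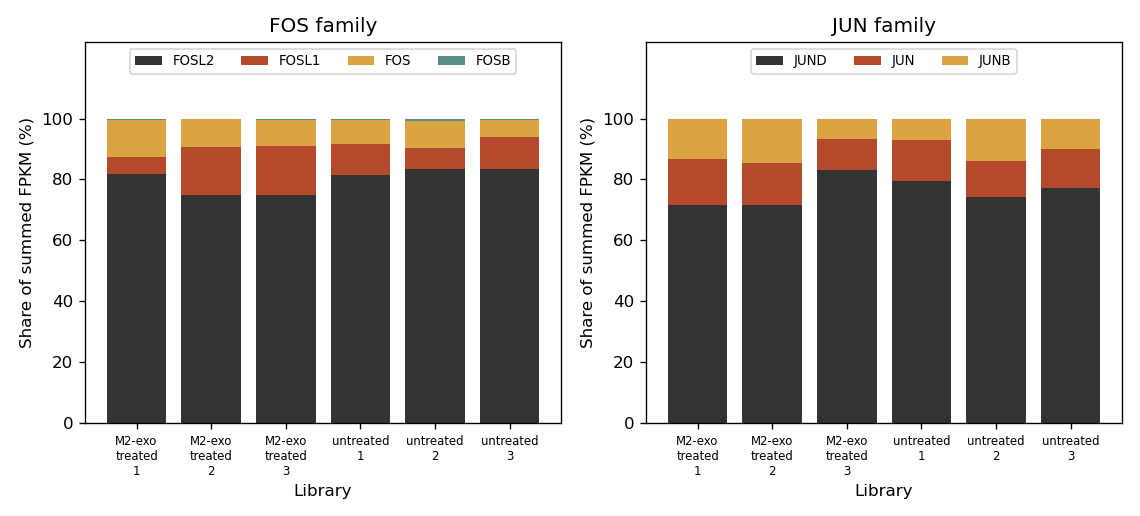
Share of the summed FPKM of the FOS family (left) and JUN family (right) held by each gene in each library (x axis; M2-exo treated, then untreated). FOSL2 holds at least 74.8% of the first and JUND at least 71.6% of the second in every library.

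Between groups, each gene was followed in CPM scaled by TMM factors. No gene of the 15084 tested was called by edgeR's quasi-likelihood test at an adjusted p of 0.05 (0% higher and 0% lower, smallest adjusted p = 0.9999), so none of the 10 factors was, although all 10 had enough counts to be tested. An unadjusted p under 0.05 was reached by 111 genes with edgeR, 82 with DESeq2 and 104 with limma-voom, and DESeq2 and limma-voom also called 0 genes. Evenly spread p values, as without any difference, would put a share of 0.05 of the tested genes there, and each count lay well below it. The 0 calls therefore do not show that no gene changed, and why these counts were low was not tested. The fitted log2 fold change was above 0 for 9 of the 10 factors, against 47.1% of all tested genes. The median was 0.21 for the factors and -0.01 for all tested genes. Because the factors were picked with this contrast known, nothing is read from that count. The values by gene follow.

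EGR1, which switches on growth and repair genes, had the largest fitted difference of the set. It stood at 39.6, 21.3 and 30.5 CPM in treated 1 to 3 and at 6.29, 15.6 and 22.5 CPM in untreated 1 to 3. Treated 2 lay below untreated 3, so the groups overlapped, and untreated 1 was far below every other library. The log2 fold change was 1.04 (SE 0.41), and 0.68 (SE 0.27) without untreated 1, whose mitochondrial share was low; the part of that library's composition in the difference was not tested. Without the filter on low counts edgeR called 6 genes of 29414, EGR1 among them, with a log2 fold change of 1.05 and an SE of 0.23. No other setting called EGR1.

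Of the 10 factors FOS alone had groups that did not overlap, with higher treated values, as 1.65% of all tested genes had; 0 of the 10 were separate in the lower direction, as 2.3% of all tested genes were. It stood at 8.39, 6.32 and 6.47 CPM in treated cells (149, 110 and 116 counts) and at 3.81, 5.65 and 4.89 CPM in untreated cells (60, 101 and 87 counts). The nearest values, treated 2 and untreated 2, differed by less than the SD within either group, and the log2 fold change was 0.56 (SE 0.25). FOSL1, an AP-1 gene that answers sustained ERK signalling, stood at 2.25, 6.14 and 7.25 CPM in treated cells and at 2.86, 2.52 and 5.06 CPM in untreated cells. Treated 1 was the lowest and treated 3 the highest of all 6, giving a log2 fold change of 0.58 (SE 0.44). That value was 0.29 without treated 3, 0.96 without treated 1 and 0.97 without untreated 3. FOSB had a log2 value of -0.51 (SE 0.62), and of -0.05 without treated 2, where it had 2 counts. FOSL2 averaged 121 ± 8.89 CPM in treated cells and 120.3 ± 34.6 CPM in untreated cells (log2 0.01, SE 0.20).

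MYC, which drives growth and ribosome production, stood at 65.0, 83.8 and 75.6 CPM in treated cells and at 48.4, 53.3 and 70.7 CPM in untreated cells. Untreated 3 lay above treated 1 and below the other treated libraries, and the log2 fold change was 0.38 (SE 0.18). JUND stood at 40.6, 56.4 and 102.9 CPM in treated cells and at 44.8, 47.3 and 81.9 CPM in untreated cells. In each group 1 library, numbered 3, stood well above the other 2, and that gap exceeded the difference between groups (log2 0.20, SE 0.35). Without treated 3 the log2 value was -0.24. JUN had a log2 fold change of 0.15 (SE 0.27), JUNB 0.22 (SE 0.36) and ATF3 0.11 (SE 0.25). JUN came to 0.02 without untreated 1 or untreated 2, and to 0.49 without untreated 3. JUNB came to -0.09 without untreated 1, where it had 60 counts against 131 to 197 in the other libraries. ATF3 came to -0.03 without untreated 2 and FOSL2 to -0.16 without untreated 1.

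**Figure D3:**
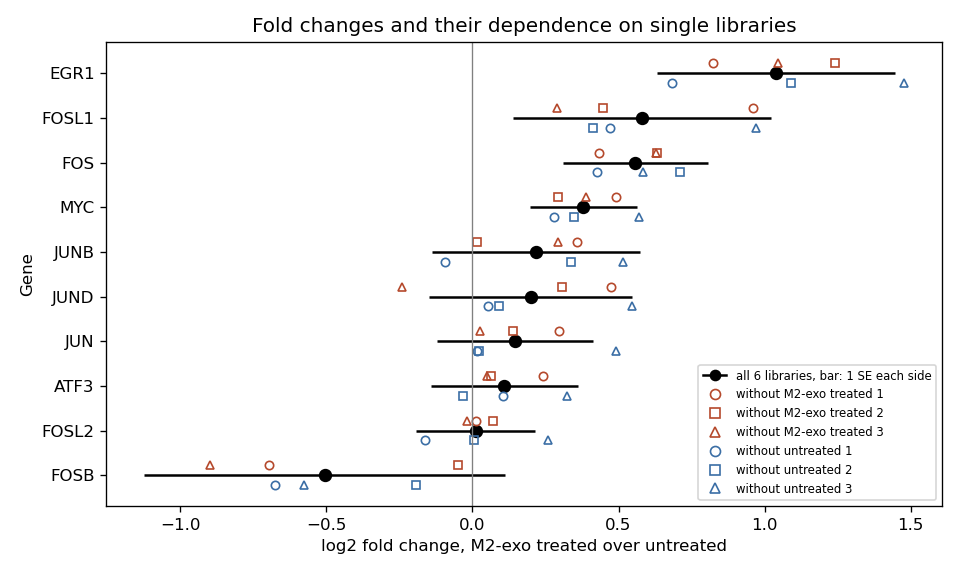
log2 fold change (x axis) of each gene, M2-exo treated over untreated, from all 6 libraries (black, bar of 1 SE to each side) and with each library left out (red, treated; blue, untreated). EGR1 ranges from 0.68 to 1.48 and JUND from -0.24 to 0.55 as single libraries are left out.

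The spread between libraries of the same group differed among these genes. For EGR1 the SD of log2 CPM was 0.45 in treated cells and 0.94 in untreated cells. The treated value exceeded that of 95.0% of the 10890 genes with a mean of at least 5 CPM, and the untreated value that of 97.7%. JUNB had an SD of 0.32 in treated and 0.76 in untreated cells, JUND 0.68 and 0.48, and FOSL2 0.11 and 0.42. FOS had an SD of 0.22 in treated and 0.28 in untreated cells, and MYC 0.18 and 0.28. The median SD over these 10890 genes was 0.15 in treated cells and 0.27 in untreated cells, so the untreated spread of FOS and MYC was near it. Of the 10 factors, 7 varied more in untreated cells, where the median SD of these 10890 genes was also larger. The other 3, FOSB, FOSL1 and JUND, varied more in treated cells.

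Seen by library, many of the factors deviated together, and the libraries of a group did not deviate alike. All 10 lay above their 6-library mean in treated 3 (median deviation 0.28 log2 units), 7 did so in treated 2 and 5 in treated 1. In untreated cells 9 lay above it in untreated 3 (median 0.32), 2 in untreated 2 and none in untreated 1 (median -0.43). In both groups the library numbered 3 thus had the most factors above the mean. This was not particular to the factors. In each group library 3 also had the highest summed FPKM of the upstream, dimer partner, AP-1 and EGR1 target and mRNA decay lists examined below. For the upstream list it was 283 FPKM in treated 3 and 298 FPKM in untreated 3. The other immediate early genes summed highest in treated 2 and untreated 3, and the MYC targets in treated 2 and untreated 1. The labels do not say whether same-numbered libraries shared a culture or day, and this was not tested. Over all tested genes the share above the mean was 50.4% to 52.4% in each library. The factors were picked with the contrast of the groups known, so nothing is read from how these counts differ between groups. Untreated 1 held the lowest of the 6 values for 6 of the 10 genes, namely EGR1, FOS, FOSL2, JUN, JUNB and MYC. The same library had the lowest mitochondrial share and the smallest total, and the part of either in these values was not tested.

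**Figure D4:**
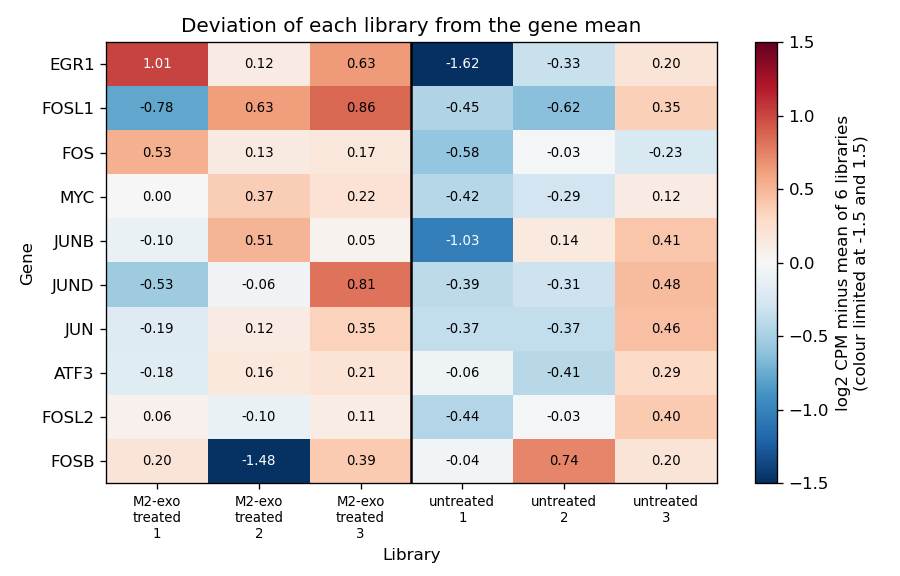
log2 CPM of each gene minus its mean over 6 libraries, with M2-exo treated libraries left of untreated ones; red is above and blue below the mean. Untreated 1 is below the mean for every gene, and treated 3 above it for every gene.

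The genes whose pattern over the 6 libraries was nearest to a factor were found by the root mean square difference of centred log2 CPM, among 10364 other protein-coding genes. For EGR1 they were MT-CO2 (0.39), WDR90, HELZ2, KLHL17 and MT-ND3 (0.41). MT-CO2 and MT-ND3 lie on the mitochondrial chromosome, which was low in untreated 1 as EGR1 was. For FOS they were C21orf58 (0.14), POLA2, RBKS, GRAMD1C and AC007325.2 (0.16). Among the factors, MYC was nearest to FOS (0.30), with FOSL2 next (0.34), and FOS was nearest to EGR1 (0.55). The measure depends on the size of the deviations, and is small for 2 genes that both vary little. A small value therefore need not mean a shared pattern.

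The genes around these factors were examined by list, as counts beside the 47.1% of tested genes above 0, and no gene of any list passed the test. Of the other immediate early genes, 24 of 28 were tested, 16 above 0 and 8 below (median log2 0.05). Among those with a mean of at least 5 CPM, a limit used for the genes named from each list, the largest value was that of IER3, a survival gene, at 32.9 CPM in treated and 21.0 CPM in untreated cells (log2 0.65, SE 0.20), followed by KLF10 (0.40). The smallest at that limit were DUSP1, a phosphatase that switches off MAP kinases (-0.35, SE 0.22), and KLF6 (-0.04). The growth factor-responsive genes CCN1 and CCN2 had values of 0.05 and 0.04, and IER2, which responds with FOS in many cell types, -0.04; these 3 were picked after their values were seen. Of the upstream factors and kinases, 10 of 20 were above 0 (median 0.01), with ELK1 at 0.19, ELK4 at 0.15, RPS6KA1 at -0.16 and RPS6KA5, also called MSK1, a kinase that phosphorylates CREB and histone H3, at 6.49 CPM in treated and 9.68 CPM in untreated cells (-0.58, SE 0.23).

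Of the dimer partners and cofactors, 20 of 22 were tested and 11 were above 0 (median 0.05). The MYC antagonist MNT had a value of 0.22 and the EGR1 corepressor NAB1 0.14, against -0.16 for MAFK and -0.13 for MYCL. Of the AP-1 and EGR1 target genes, 17 of 22 were tested and 10 were above 0 (median 0.03). The collagenase gene MMP1, an AP-1 target, stood at 13.6 CPM in treated and 9.15 CPM in untreated cells (log2 0.57, SE 0.23), TGFB1 at 0.16, VEGFA at -0.25 and CD44 at -0.13. NAB2, which EGR1 induces in many cells, had a log2 value of 0.13 (SE 0.38) and was named after its value was seen.

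Of the 16 MYC target genes, all were tested and 10 were above 0 (median 0.07). The polyamine synthesis genes ODC1 and SRM had the largest values, 0.25 (SE 0.15) and 0.24 (SE 0.19), and the nucleolar genes RRP9 and DKC1 the smallest, -0.11 each. Of 13 genes of mRNA decay and AU-rich element binding, which set the life of immediate early mRNAs, 6 were above 0 (median -0.0003). ZFP36, which speeds the decay of such mRNAs and is itself induced early, had a value of 0.32 (SE 0.46), ZFP36L2 0.20, TIAL1 -0.12 and HNRNPD -0.23.

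**Figure D5:**
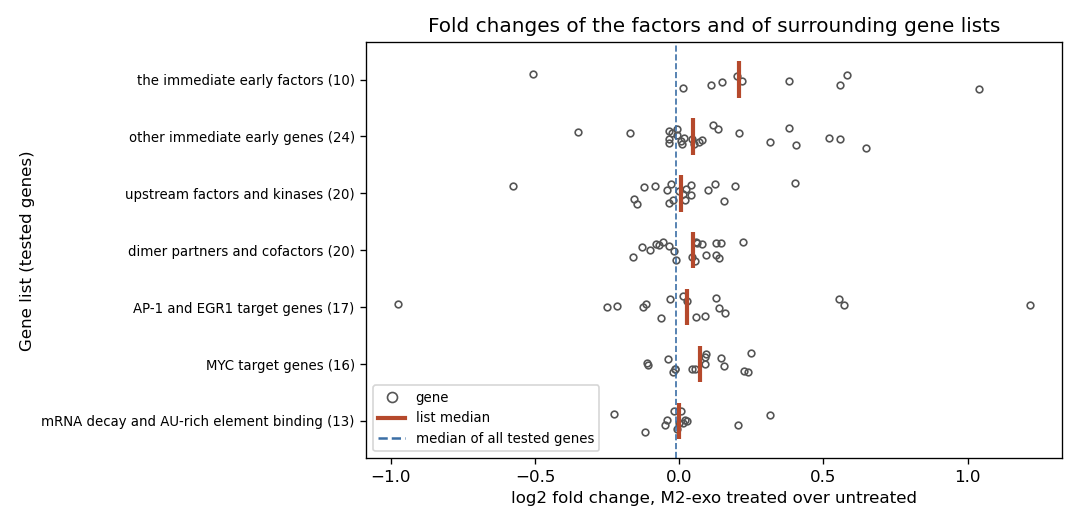
log2 fold change (x axis), M2-exo treated over untreated, of each tested gene in 7 lists (y axis, number of tested genes in brackets), with list medians in red and the median of all tested genes as a dashed line. List medians run from -0.0003 to 0.21, the last for the immediate early factors, which were chosen with these values known.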

How the data were processed

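Read counts per gene and FPKM values were used as deposited by the authors for 6 Caco-2 mRNA libraries. The submitters' processing notes name CASAVA, HISAT2, featureCounts and GRCh38; versions, strand setting and handling of multiply mapped reads are not stated there. The deposited FPKM equal the counts divided by gene length and a constant per library. In both tables together, 6 columns belong to no sample listed for the series and were left out, as was the exosome miRNA table.

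The counts were filtered with filterByExpr and fitted with edgeR 4.0.16 in R 4.3.3 (TMM scaling, quasi-likelihood F test, 2-sided, Benjamini-Hochberg adjustment over all tested genes). The procedure was tested on simulated data. The SE was taken as the absolute log2 fold change over the root of the F statistic. CPM are TMM-scaled; log2 CPM used a prior count of 2. Alternatives were DESeq2 1.42.0, limma 3.58.1 (voom, log2(FPKM + 1) and log2(FPKM + 0.1)), other scalings and filters, a replicate block and each library left out. From each list up to 2 genes with the largest and 2 with the smallest values at a mean of at least 5 CPM were named, with exceptions marked. The factors, lists and tests were chosen with earlier results of these data known. All list symbols were matched to the gene table, CCN1 and CCN2 by gene ID. Sequences are from RefSeq tables.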

Additional observations from a re-analysis of the deposited data

How the results depend on the processing

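Removing the low count filter changed the number of called genes to 6 and brought EGR1 to a log2 fold change of 1.05 with an edgeR adjusted p = 0.0384. Every other setting gave EGR1 an adjusted p of at least 0.957, the smallest being that of edgeR without untreated 1. The cause of this dependence on the filter was not tested. Leaving out 1 library gave 0 to 1 called genes, the 1 being BOLA2B without treated 2, named after its values were seen. Leaving out 1 library put 7 to 15 dimer partners and 8 to 16 MYC targets above 0. FOS, FOSL1, JUN, EGR1 and MYC kept a log2 value above 0 in all 16 settings, the main one included. FOSB was below 0 in every setting that gave it a value; a mean CPM of at least 1 left it out. FOSL2, JUNB, JUND and ATF3 were below 0 in 1 or 2 of the 16 settings, each with 1 library left out. With the replicate number as a block edgeR called 0 genes, with a smallest adjusted p = 0.415. With that block 211 genes had an unadjusted p under 0.05, against 111 in the main fit. The SE fell for all factors but FOS and FOSB, for JUND from 0.35 to 0.15. Same-numbered libraries had deviations correlated at 0.28, -0.06 and 0.48, and differently numbered ones at -0.42 to 0.18. The main fit did not pair the libraries because the labels do not tie the numbers to a shared culture or day. Counts of 2 to 17 limit FOSB.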
